A study of Mus musculus with 42 samples.

Results

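The genes described here encode the proteasome, the protease complex that degrades ubiquitin-tagged proteins, together with its activators, inhibitor and assembly chaperones. They were taken by name, as every row of the offspring expression table whose symbol is Psma, Psmb, Psmc, Psmd, Psme, Psmf or Psmg followed by a number. This gave 44 of 12988 genes listed, with 1 identifier each. By subunit class they were 7 genes of the alpha ring, 7 of the beta ring, 1 immune catalytic subunit (Psmb10), 6 ATPases of the base, 3 other base subunits, 8 lid subunits, 3 base assembly chaperones, 4 activators, 1 inhibitor (Psmf1) and 4 core assembly chaperones. Psma8, Psmb8, Psmb9, Psmb11 and Psme2b are not listed in that table and were not analysed for expression.

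The study gave male C57BL/6J mice DEHP, a phthalate plasticiser, from 8 weeks of age for 67 days and mated them with unexposed females. The fathers received vehicle (control), 2.5 mg/kg/day (low) or 25 mg/kg/day (high), and the offspring, labelled wild type, male and C57BL/6 * DBA/2J, were themselves not dosed and were collected at embryonic day 7.5, at gastrulation. Expression was read from 2 libraries per group and methylation, by reduced representation bisulfite sequencing, from 3 per group. The table columns give the group and a number but no tissue, and the labels name embryo and extra-embryo libraries for each assay and sperm libraries for methylation, so it is open which tissue each table holds. No label says whether a library holds 1 embryo or several, or which libraries share a father or litter, so the p-values measure the spread between libraries, which may in part be technical.

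The proteasome is built from a barrel, the core particle, in which outer alpha rings gate the entrance and inner beta rings carry the proteolytic sites, and a regulatory particle that caps it. In the regulatory particle the base holds an ATPase ring that unfolds substrates and pulls them into the barrel, and the lid removes the ubiquitin chain. Activators can take the place of that cap, and dedicated chaperones put the rings together. Dividing cells use the complex to clear cyclins and other short-lived regulators, and mouse embryos without the base ATPases Psmc3 or Psmc4 die early in development. When proteasome activity drops, the transcription factor Nfe2l1 raises transcription of many subunit genes together, through antioxidant response elements in their promoters.

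Promoter windows of 250 bases before to 50 bases after the RefSeq gene start (GRCm38.p6) were at hand for 37 of the 44 genes, 40 windows in all. Those of 5 genes are shown, chosen as follows. Psmb5 and Psmb6 are constitutive catalytic subunits with the core letters of the antioxidant response element close to the start, Psme4 has these letters and a methylation tile in its window, and Psmb10 and Psme2 are the genes whose expression ranged most. Each runs 5′ to 3′ on the strand of its gene, and capitals mark a match to TGACNNNGC. In Psme4 the match is on the opposite strand, so the capitals show its reverse complement. The windows are chr14:54617946-54618245 on the minus strand for Psmb5, chr11:70525107-70525406 on the plus strand for Psmb6, chr11:30771525-30771824 on the plus strand for Psme4, chr14:55591052-55591351 on the minus strand for Psme2 (the first of 2 listed) and chr8:105938343-105938642 on the minus strand for Psmb10.
Psmb5: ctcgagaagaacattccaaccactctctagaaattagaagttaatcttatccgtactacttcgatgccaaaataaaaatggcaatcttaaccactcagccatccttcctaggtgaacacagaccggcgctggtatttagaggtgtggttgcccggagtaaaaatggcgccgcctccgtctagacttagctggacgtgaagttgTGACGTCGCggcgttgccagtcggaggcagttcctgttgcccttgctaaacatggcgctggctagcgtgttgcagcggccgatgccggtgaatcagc
Psmb6: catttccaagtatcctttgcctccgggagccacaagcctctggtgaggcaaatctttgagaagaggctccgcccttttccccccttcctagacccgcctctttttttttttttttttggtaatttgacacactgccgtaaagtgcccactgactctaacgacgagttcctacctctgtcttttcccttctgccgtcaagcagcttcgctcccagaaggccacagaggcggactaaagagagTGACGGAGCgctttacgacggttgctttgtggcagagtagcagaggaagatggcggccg
Psme4: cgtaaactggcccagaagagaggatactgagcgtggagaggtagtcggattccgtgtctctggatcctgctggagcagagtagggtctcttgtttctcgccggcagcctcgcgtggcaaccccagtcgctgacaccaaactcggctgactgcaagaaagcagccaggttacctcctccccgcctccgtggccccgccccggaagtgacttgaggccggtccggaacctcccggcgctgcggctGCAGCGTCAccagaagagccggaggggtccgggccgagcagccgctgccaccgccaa
Psme2: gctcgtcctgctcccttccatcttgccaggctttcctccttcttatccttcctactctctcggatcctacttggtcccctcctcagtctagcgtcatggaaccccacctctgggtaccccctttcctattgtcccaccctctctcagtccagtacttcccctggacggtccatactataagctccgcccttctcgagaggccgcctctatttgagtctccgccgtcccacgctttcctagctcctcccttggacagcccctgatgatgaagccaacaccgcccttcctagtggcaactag
Psmb10: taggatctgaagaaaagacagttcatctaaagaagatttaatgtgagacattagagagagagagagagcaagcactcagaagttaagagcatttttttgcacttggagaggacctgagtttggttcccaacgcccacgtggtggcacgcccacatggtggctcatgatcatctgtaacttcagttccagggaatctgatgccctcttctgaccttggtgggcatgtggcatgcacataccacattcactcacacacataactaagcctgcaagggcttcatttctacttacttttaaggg

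TGACNNNGC was searched on both strands and occurred in 6 of the 40 windows (15%), those of Psmb5, Psmb6, Psmc6, Psmd9, Psmd12 and Psme4. Of 12823 windows of genes in the expression table, 14.4% held it, and of all 32851 windows 12.4%, so the share among proteasome genes was near that of other expressed genes. The match began 47 bases before the start in Psmb5, 9 bases before it in Psmb6 and 7 bases before it in Psme4. CCAAT, the core of the element bound by the factor NF-Y, occurred on either strand in 12 windows (30%), against 37.7% of windows of genes in the expression table and 37.4% of all windows. Of the 12 windows with CCAAT, 5 were among the 8 alpha ring windows, and no window held both motifs. The median window of the proteasome genes held 19 CpG sites, against 21 for genes of the expression table and 7 for all windows. Psmb10 had 3 CpG sites in its window and Psme2 had 11, against 20 in Psmb5, 15 in Psmb6 and 25 in Psme4. A match of letters is a description of the sequence and not a binding site.

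Proteasome subunit genes were expressed at steady levels in all 6 libraries. Levels are in CPM, the authors' scaling of read counts by library size with a factor that is unknown, and they are not divided by gene length, so they do not rank the genes against each other. Each gene passed the filter of 1 CPM in 2 libraries. Mean CPM ran from 10.7 for Psmb10 to 353 for Psmd2, and 34 of the 44 genes averaged 50 CPM or more. The ratio of the highest to the lowest of the 6 libraries was 1.03 for Psmd10 at the low end, 1.11 at the median and 1.41 for Psmb10 at the high end, and it stayed under 1.2 in 40 genes. The 4 that reached 1.2 were Psmb10, Psme2 (1.33), Psmg4 (1.21) and Psme1 (1.204). The median within-group SD on the log2(CPM + 1) scale was 0.052 for the proteasome genes, against 0.064 for the 3453 genes that average 50 CPM or more and 0.083 for all 12987 genes tested.

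The relative depth of the libraries, from the smallest step between values, was 95.8 and 97.5% of that of low 2 in control, 97.7% in low 1 and 79.0 and 83.2% in high libraries. Lines for reads without a unique alignment held 20.8 to 22.9% of a column. Markers of the epiblast and streak (7 of 7 listed) summed to 925 and 993 CPM in control, 1116 and 1014 CPM in low and 865 and 728 CPM in high libraries. Markers of visceral endoderm (6 of 6 listed) summed to 2154 and 1009 CPM in control, 1634 and 1912 CPM in low and 1686 and 2270 CPM in high libraries. Of 7 trophoblast markers 5 were listed, and the defining genes Elf5 and Tpbpa were not among them. The 5 summed to 55.2 and 36.9 CPM in control, 98.5 and 58.3 CPM in low and 49.1 and 76.5 CPM in high libraries, highest in low 1. Of 5 decidua markers 2 were listed, summing to 3.20 to 6.28 CPM, and none of the 8 blood and immune markers were. In bulk tissue, fewer cells of a type and less RNA per cell cannot be told apart.

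No proteasome gene passed the test in any of the 3 comparisons. In low against control limma called 0 of 44 genes (p under 0.05 after Benjamini-Hochberg adjustment), where 0% of all genes tested were called. In high against control 0 of 44 were called, against 0.0077% of all genes (1 gene), and in high against low 0 of 44, against 0%. At an unadjusted p under 0.05, low against control held 1 proteasome gene (Psme2, higher), against 1.9% of all genes higher and 2.97% lower. High against control held 1 (Psmg4, higher), against 3.65% of all genes higher and 1.64% lower, and high against low held 0, against 5.69% higher and 2.22% lower. The largest difference in any comparison was 0.23 on the log2 scale, for Psme2 in low against control.

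**Figure D1:**
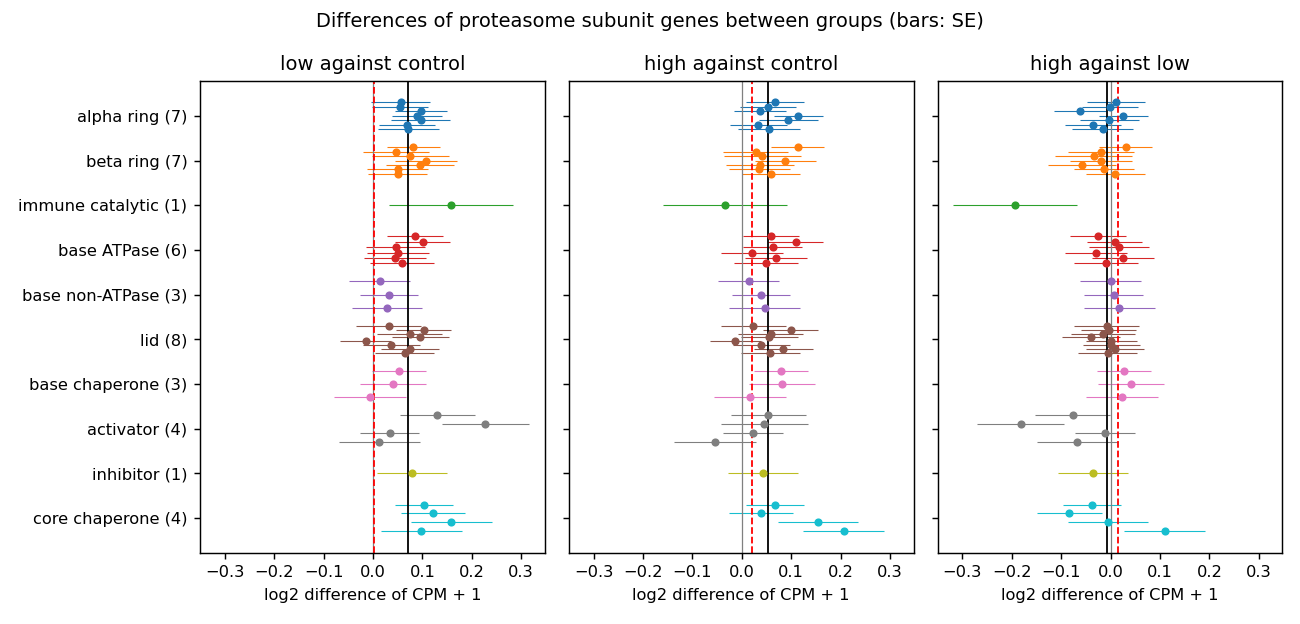
Differences of the 44 genes between groups on the log2(CPM + 1) scale, one point per gene with its standard error, by subunit class, for low against control, high against control and high against low. The solid black line is the median of the 44 genes and the dashed red line that of all genes tested. In low against control 42 of 44 points lie above 0, and none passes the test.

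The small differences leaned one way. In low against control 42 of 44 proteasome genes had a positive difference, where 51% of all genes did, and their median was 0.070 on the log2 scale against 0.0025 for all genes. In high against control 41 of 44 were positive, where 58.6% of all genes were, with a median of 0.054 against 0.020. These comparisons use the same control libraries. In high against low 17 of 44 were positive, where 57.5% of all genes were, with a median of −0.0071 against 0.015. Both low libraries lay above both control libraries in 27 genes (61.4%, against 18% of all genes), and in 0 genes did both lie below (17.2% of all genes). Both high libraries lay above both control libraries in 13 genes (29.5%, against 23.5% of all genes), and in 0 genes did both lie below (12.1%). Both high libraries lay above both low libraries in 3 genes (6.82%, against 21.8% of all genes) and below them in 5 (11.4%, against 11.8%). These counts over genes are descriptions, and genes of one complex measured in the same libraries are not replicates.

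The lean differed between libraries of one group. Control 1 was the lowest of the 6 libraries for 28 of 44 proteasome genes (63.6%), where 16.5% of all genes were lowest there, and high 2 was the lowest for 10, against 16.7% of all genes. The median deviation of the 44 genes from their own means was −0.079 and −0.013 in control, 0.039 and 0.014 in low and 0.043 and −0.019 in high libraries. Over all genes the same medians lay between −0.0057 and 0.018. Summed over the 44 genes, CPM came to 5095 and 5310 in control, 5481 and 5361 in low and 5499 and 5267 in high libraries, between 0.727 and 0.773% of all gene CPM. High 2 thus lay below control 2, and the 2 groups overlapped. Control 1 was the lowest library for 26 genes after the columns were rescaled to one sum and for 29 after quantile normalization.

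Without control 1, low against control had 40 of 44 positive differences (49.4% of all genes) with a median of 0.050, and high against control had 34 (55.7%) with a median of 0.027. Without control 2 the medians were 0.106 and 0.079. Leaving out 1 library at a time, the positive count in low against control ran from 36 to 43. It was lowest without low 1, where 51.1% of all genes were positive. High against control had 29 positive genes and a median of 0.021 without high 1, and 42 and 0.096 without high 2. Leaving out a library makes separation easier for every gene. The count of genes with high above control and no overlap was 14 without control 1 (31.8%, against 40.3% of all genes), 31 without control 2 (70.5%, against 38.5%), 17 without high 1 (38.6%, against 41.7%) and 36 without high 2 (81.8%, against 42%). Without high 1, 11 genes lay below control with no overlap (25%, against 29.5% of all genes). In high against low, 11 genes were positive without high 1 and 33 without high 2, so the direction of that comparison turned with 1 library. Its count of genes with no overlap upward was 14 without low 1 (31.8%, against 37.1% of all genes), 7 without high 1 (15.9%, against 42.7%) and 20 without high 2 (45.5%, against 39.7%). Downward it was 20 without low 2 (45.5%, against 29%) and 27 without high 1 (61.4%, against 29.8%).

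**Figure D2:**
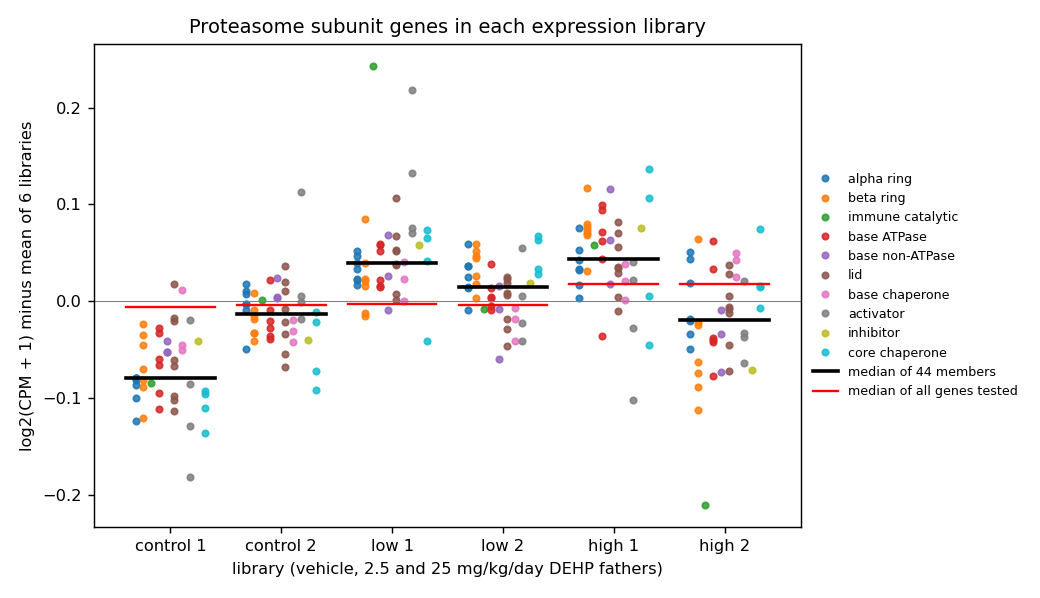
Deviation of each of the 44 genes from its own mean over 6 libraries, on the log2(CPM + 1) scale, by library, with points coloured by subunit class, the black bar at the median of the 44 genes and the red bar at that of all genes tested. The medians are −0.079 and −0.013 in control, 0.039 and 0.014 in low and 0.043 and −0.019 in high libraries.

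The 75 cytosolic ribosomal protein genes listed as Rpl or Rps had a like profile. Their median deviations were −0.084 and −0.018 in control, 0.026 and 0.021 in low and 0.077 and −0.037 in high libraries. Visceral endoderm markers were at 2154 CPM in control 1 and 1009 CPM in control 2, and the part of tissue makeup or of library preparation in the proteasome values was not tested.

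The core particle and the regulatory particle were offset to a like degree. The 15 core subunits had a median difference of 0.075 in low against control and 0.053 in high against control, and the 17 base and lid subunits 0.050 and 0.056. All 15 core subunits and 16 of 17 base and lid subunits were positive in low against control, and 14 and 16 in high against control. The ratio of summed base and lid CPM to summed core CPM was 1.43 and 1.41 in control, 1.41 and 1.37 in low and 1.40 and 1.40 in high libraries. Both high values lay below the lower control by less than the gap between the controls, low 1 lay within the control range, and low 2 lay below the lower control by more than that gap. Differences between the classes were not tested.

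In the alpha ring, which gates the barrel, all 7 genes were positive against control at both doses, with medians of 0.071 in low and 0.055 in high (0.032 and 0.010 without control 1, 0.114 and 0.096 without control 2, and 0.025 for high without high 1), and all 7 were lowest in control 1. Psma4 stood at 146 and 150 CPM in control, 157 and 158 CPM in low and 160 and 161 CPM in high libraries. It was above both controls in all 4 libraries from exposed fathers, and its difference in high against control was 0.11 (SE 0.050, unadjusted p = 0.054, adjusted p = 0.866 by limma). Psma7 had the highest CPM of the ring at 168 and 178 in control, 181 and 183 in low and 188 and 172 in high libraries. Psma5 had the lowest at 110 and 119 CPM in control, 124 and 121 CPM in low and 121 and 123 CPM in high libraries. For Psma5 both low and both high libraries lay above the controls, and for Psma7 the high libraries did not.

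The beta ring holds the proteolytic sites, and its 7 genes had medians of 0.075 in low against control and 0.041 in high against control, where the median was −0.034 without high 1 and 0.105 without high 2. Psmb5, the chymotrypsin-like subunit, stood at 95.2 and 98.7 CPM in control, 106 and 101 CPM in low and 105 and 94.0 CPM in high libraries. High 2 was its lowest library, and high 1 was among its highest, so the high group spanned the controls. Psmb6, the caspase-like subunit, stood at 133 and 132 CPM in control, 137 and 138 CPM in low and 143 and 129 CPM in high libraries. Psmb7, the trypsin-like subunit, stood at 155 and 165 CPM in control, 167 and 165 CPM in low and 172 and 162 CPM in high libraries. Psmb3, with the lowest CPM of the ring and no active site, stood at 95.1 and 95.9 CPM in control, 99.6 and 101.8 CPM in low and 107 and 90.7 CPM in high libraries, with both low libraries above its controls and the high libraries on either side. The 3 catalytic subunits had differences of 0.096, 0.050 and 0.050 in low against control and 0.037, 0.036 and 0.060 in high against control, none past the test. Psmb1, a beta subunit without an active site, stood at 125 and 129 CPM in control, 131 and 137 CPM in low and 135 and 139 CPM in high libraries, with a difference of 0.11 in high against control (SE 0.053, unadjusted p = 0.071, adjusted p = 0.866 by limma).

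Psmb10 is the interferon-inducible catalytic subunit that replaces Psmb7 in immunoproteasomes, and it was the least abundant in CPM and the most variable proteasome gene. It stood at 9.99 and 10.7 CPM in control, 12.8 and 10.6 CPM in low and 11.1 and 9.07 CPM in high libraries. Low 1 was its highest and high 2 its lowest library, and every pair of groups overlapped. Its difference was 0.16 (SE 0.13) in low against control, −0.035 (SE 0.13) in high against control and −0.19 (SE 0.13, unadjusted p = 0.165, adjusted p = 0.900 by limma) in high against low. In high against control the sign turned with single libraries, to 0.0996 without high 2, against −0.169 without high 1. Relative to Psmb7 in the same library, Psmb10 stood at 6.44 and 6.46% in control, 7.66 and 6.43% in low and 6.46 and 5.61% in high libraries, as a share of CPM with no length correction. Of the 6 libraries 4 lay between 6.43 and 6.46%.

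The 6 base ATPases unfold substrates, and all 6 were positive against control at both doses, with medians of 0.055 in low and 0.061 in high (0.0040 without high 1 and 0.112 without high 2, and for low 0.085 without control 2). Psmc2 stood at 114 and 121 CPM in control, 128 and 124 CPM in low and 127 and 126 CPM in high libraries, with every library from an exposed father above both controls. Psmc3, with the highest CPM of the ATPases, stood at 174 and 174 CPM in control, 180 and 179 CPM in low and 191 and 173 CPM in high libraries. In low against control the other base subunits had the smallest class median. Psmd2, a ubiquitin and shuttle receptor, stood at 341 and 354 CPM in control, 360 and 351 CPM in low and 369 and 345 CPM in high libraries. Psmd1, Psmd2 and Psmd4 (a ubiquitin receptor) had a median of 0.028 in low against control, which was 0.00011 without control 1. Their median was 0.039 in high against control, and −0.0097 without high 1. Psmd4 stood at 127 and 132 CPM in control, 131 and 134 CPM in low and 143 and 126 CPM in high libraries. In none of the 3 did the low or the high libraries separate from control.

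The lid had medians of 0.069 in low against control (0.044 without control 1) and 0.057 in high against control (0.090 without high 2), with 7 of 8 genes positive in each. Psmd14, the deubiquitinase of the lid, stood at 102.2 and 111 CPM in control, 113 and 110 CPM in low and 112 and 110 CPM in high libraries. Psmd6 stood at 98.9 and 105 CPM in control, 111 and 109 CPM in low and 110 and 109 CPM in high libraries, above both controls at both doses. Psmd3, a scaffold subunit with the highest CPM of the lid, stood at 186 and 177 CPM in control, 184 and 187 CPM in low and 195 and 175 CPM in high libraries, with control 1 above low 1 and high 2. Psmd11, which was negative in both comparisons with control, stood at 119 and 124 CPM in control, 121 and 119 CPM in low and 121 and 120 CPM in high libraries. Its differences of −0.015 (SE 0.052) in low and −0.013 (SE 0.052) in high were smaller than its spread between control libraries. The base assembly chaperone Psmd10 (gankyrin) was the steadiest of the 44 genes, at 14.6 and 14.3 CPM in control, 14.5 and 14.3 CPM in low and 14.5 and 14.8 CPM in high libraries. Psmd9, another base chaperone, stood at 23.6 and 23.9 CPM in control, 25.2 and 23.7 CPM in low and 25.2 and 25.2 CPM in high libraries. Psmd5, with the highest CPM of the base chaperones, stood at 50.4 and 50.5 CPM in control, 52.9 and 51.8 CPM in low and 52.8 and 53.9 CPM in high libraries, above both controls at both doses.

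The 4 activator genes had medians of 0.082 in low against control (0.023 without low 1 and 0.155 without control 2) and 0.034 in high against control (−0.029 without control 1 and 0.083 without control 2). Psme1 and Psme2 encode the subunits of one interferon-inducible ring, and their genes are 5912 bp apart on chromosome 14. Psme2 stood at 24.5 and 27.9 CPM in control, 32.6 and 29.01 CPM in low and 27.3 and 26.6 CPM in high libraries. Both low libraries lay above all others, and the high libraries lay within the control range. Its difference was 0.23 (SE 0.089, unadjusted p = 0.035, adjusted p = 0.928 by limma) in low against control and −0.18 (SE 0.089, unadjusted p = 0.077, adjusted p = 0.732) in high against low, higher in 2 of 2 low libraries in each case. Without control 1 the first was 0.137 and without low 1 it was 0.146, and without low 1 the second was −0.1005. Psme1 stood at 33.2 and 36.5 CPM in control, 39.97 and 36.5 CPM in low and 36.95 and 35.4 CPM in high libraries, and its difference in low against control was 0.13 (SE 0.076, adjusted p = 0.928 by limma). Their sum was 57.7 and 64.4 CPM in control, 72.6 and 65.5 CPM in low and 64.3 and 62.1 CPM in high libraries.

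Psme3 encodes the nuclear activator ring, and stood at 206 and 206 CPM in control, 219 and 203 CPM in low and 215 and 204 CPM in high libraries. Psme4 encodes the large single-chain activator known from sperm formation and DNA repair. It stood at 225 and 259 CPM in control, 252 and 235 CPM in low and 223 and 243 CPM in high libraries, and its controls spanned nearly the whole range. Its difference of −0.054 (SE 0.082) in high against control turned to 0.045 without control 2. Psmf1, a proteasome inhibitor, stood at 31.3 and 31.3 CPM in control, 33.6 and 32.7 CPM in low and 34.03 and 30.6 CPM in high libraries. Both low libraries lay above its controls, and the high libraries lay on either side.

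**Figure D3:**
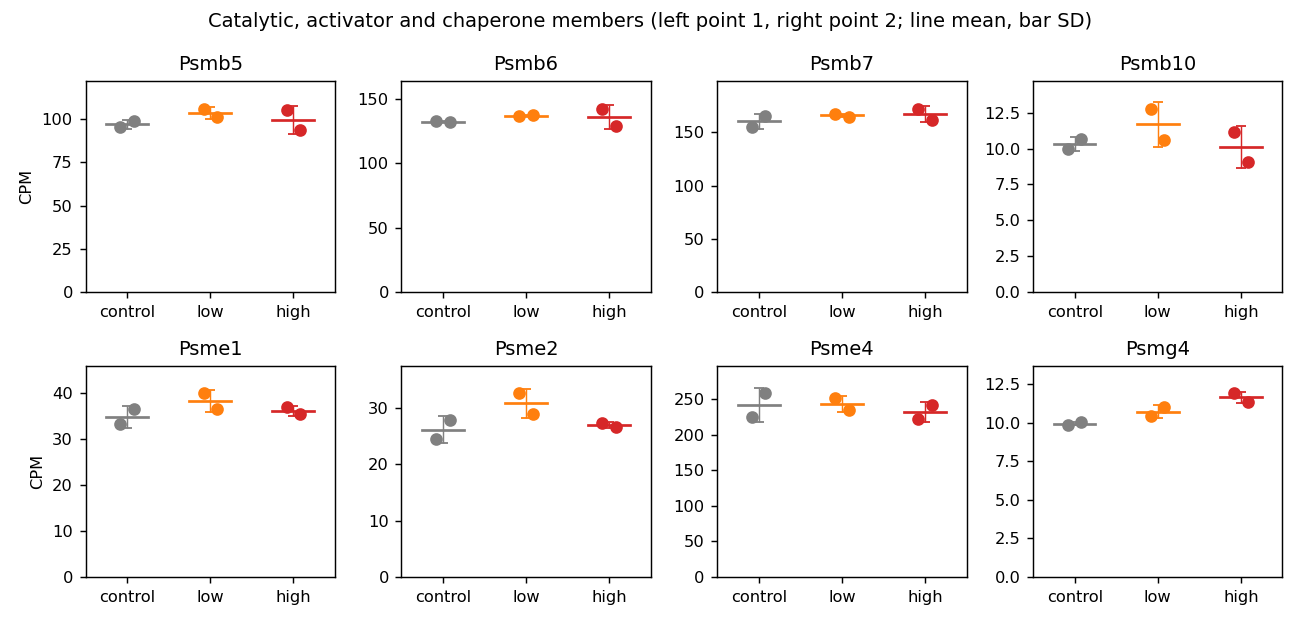
CPM of 8 proteasome genes in each library (points, library 1 left and library 2 right), with the group mean as a line and the SD of 2 libraries as a bar, on axes that start at 0. Psme2 has both low values (32.6 and 29.01 CPM) above the other 4, Psmg4 has both high values (11.9 and 11.4 CPM) above the others, and Psmb10 overlaps between all groups.

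The core assembly chaperones had the largest medians among classes of more than 1 gene, 0.113 in low against control and 0.111 in high against control. Leaving out 1 library at a time, these medians ran from 0.084 to 0.152 and from 0.077 to 0.145. All 4 chaperone genes were positive in both comparisons and lowest in control 1. They pair up to build the alpha ring. Psmg4 stood at 9.88 and 10.02 CPM in control, 10.4 and 11.02 CPM in low and 11.9 and 11.4 CPM in high libraries, with no overlap between any pair of groups. Its difference was 0.098 in low against control and 0.21 (SE 0.082, unadjusted p = 0.038, adjusted p = 0.866 by limma) in high against control. Psmg3, its partner, stood at 12.2 and 12.8 CPM in control, 14.0 and 14.2 CPM in low and 14.6 and 13.5 CPM in high libraries, with differences of 0.16 in low and 0.15 in high against control (SE 0.081 each, adjusted p = 0.928 and 0.866). Psmg2 stood at 30.4 and 32.3 CPM in control, 34.3 and 34.02 CPM in low and 31.5 and 32.9 CPM in high libraries, and Psmg1, its partner, at 43.0 and 45.3 CPM in control, 48.1 and 46.9 CPM in low and 46.1 and 46.4 CPM in high libraries. For Psmg1 every library from an exposed father lay above both controls, and for Psmg2 the high libraries overlapped control. These are low-level genes, for which the log2(CPM + 1) scale understates a change.

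Proteasome genes outside the Psm symbols were read from lists of subunits and partners, and 0 of them passed the test in any comparison. Of 12 subunits and partners 11 were listed (Paaf1 was not). Of these, 8 were positive in low against control and 7 in high against control, with medians of 0.040 and 0.071. Over all genes 51% and 58.6% were positive, with medians of 0.0025 and 0.020. Sem1, the smallest lid subunit, stood at 72.2 and 75.4 CPM in control, 79.6 and 85.3 CPM in low and 86.6 and 83.8 CPM in high libraries. All 4 libraries from exposed fathers lay above both controls, with a difference of 0.16 (SE 0.060, unadjusted p = 0.033, adjusted p = 0.928 by limma) in low and 0.21 (SE 0.060, unadjusted p = 0.010, adjusted p = 0.866) in high. Pomp, which matures the core particle, stood at 78.7 and 86.8 CPM in control, 93.2 and 88.7 CPM in low and 91.7 and 93.8 CPM in high libraries, again above both controls at both doses, with a difference of 0.16 (SE 0.065, adjusted p = 0.866) in high against control. Usp14, a deubiquitinase of the cap, stood at 104 and 108 CPM in control, 101 and 96.8 CPM in low and 97.8 and 104 CPM in high libraries, and was negative in both comparisons.

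In the route that activates Nfe2l1, 9 of 9 genes were listed, with 7 positive in low against control and 8 in high against control and medians of 0.049 and 0.080. For this list and those below, the shares of all genes that were positive were 51% in low against control and 58.6% in high against control. In high against low the share was 57.5%. Nfe2l1 itself stood at 123 and 114 CPM in control, 118 and 114 CPM in low and 124 and 121 CPM in high libraries, and its groups overlapped. Vcp, the ATPase that extracts proteins from membranes and complexes, stood at 564 and 582 CPM in control, 594 and 591 CPM in low and 619 and 606 CPM in high libraries, ordered by dose with no overlap, with a difference of 0.096 (SE 0.055, adjusted p = 0.866 by limma) in high against control. Of 12 ubiquitin and shuttle genes 11 were listed, with 5 positive in low against control and 4 in high against control and medians of −0.0015 and −0.011. Ubb, a polyubiquitin gene, was the most variable of them, at 506 and 511 CPM in control, 360 and 438 CPM in low and 550 and 398 CPM in high libraries. Its difference in low against control was −0.36 (SE 0.15, unadjusted p = 0.047, adjusted p = 0.928), with both low libraries below both controls. Of 10 antigen processing and interferon genes 7 were listed, with 5 positive in low against control, 3 in high against control and 1 in high against low, and medians of 0.067, −0.067 and −0.107. Psme1, Psme2 and Psmb10, which interferon also induces, were positive in low against control, as were 42 of the 44 proteasome genes. These 3 genes were negative in high against low, as were 27 of the 44, and none passed the test.

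DNA near the starts of proteasome genes was little methylated. The deposited table gives percent methylation of 100 bp tiles without coverage, so the depth behind a tile is unknown. Starts were those of the RefSeq promoter windows, at hand for 37 of the 44 genes, and within 1000 bp of them lay 154 tiles at 34 genes. Psmb6, Psmd10 and Psmg4 had a start but no tile. Psmb1, Psmb2, Psmb7, Psmc3, Psmd3, Psmd7 and Psmg2 had no start to search around and were not analysed for methylation. The median tile was at 1.49 to 2.78% in each of the 9 libraries, against 3.54 to 4.92% for the 52892 tiles at starts of all genes. Of the 154 tiles 118 averaged under 10% (76.6%, against 71.8% of all start tiles) and 0 reached 50%, where 2190 of all start tiles did. The highest, at 35.6%, was centred 56.5 bp after the start of Psmd13.

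No tile at these starts passed the test. Of the 154 tiles 0 were called in low against control, high against control or high against low (limma, adjusted p under 0.05), where 0% of 141251 tiles were called in each. At an unadjusted p under 0.05 the counts were 3, 0 and 1, where 5.49, 4.44 and 4.71% of all tiles fell under it. The median differences were 0.0055, −0.015 and 0.026 percentage points. In low against control the smallest p was that of a tile 191.5 bp into Psma4, at 6.52, 6.09 and 7.46% in low and 9.41, 8.36 and 8.82% in control libraries. It differed by −2.17 points (SE 0.76, unadjusted p = 0.024, adjusted p = 0.878 by limma), and its low and control libraries did not overlap. The high libraries, at 8.76, 7.05 and 7.02%, overlapped both of these groups. Of the 3 tiles under an unadjusted p of 0.05 in low against control, 2 were lower and 1 was higher. The higher tile, centred 835.5 bp after the start of Psmd11, stood at 9.32, 12.7 and 13.1% in low and 6.64, 10.3 and 7.41% in control libraries. It differed by 3.56 points (SE 1.43, unadjusted p = 0.041, adjusted p = 0.901 by limma), and its low and control libraries overlapped.

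In Psme4, a tile centred 124.5 bp before the start and inside the promoter window printed above stood at 4.91, 4.16 and 4.78% in control, 1.69, 2.82 and 3.55% in low and 4.57, 5.85 and 4.40% in high libraries. The 3 low libraries lay below the other 6, with a difference of 2.25 points in high against low (SE 0.75, unadjusted p = 0.020, adjusted p = 1 by limma). In low against control it was −1.93 points (SE 0.75, unadjusted p = 0.037, adjusted p = 0.893 by limma). A tile centred 24.5 bp before the start, also in that window, stood at 0, 3.72 and 6.96% in control and 0, 9.02 and 0% in low libraries. In high libraries it was at 8.99, 4.02 and 5.73%, and every pair of groups overlapped. Over its 5 tiles, Psme2 averaged 7.90 ± 0.61% in control, 8.46 ± 0.96% in low and 8.12 ± 0.03% in high libraries (SD, n = 3 each), and Psmb10 over 4 tiles 2.27 ± 0.59% in control, 2.94 ± 0.58% in low and 2.35 ± 0.33% in high libraries. For both the spreads overlapped. By gene, means over the 9 libraries ran from 0.218% for Psmb3 to 18.3% for Psmd9.

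**Figure D4:**
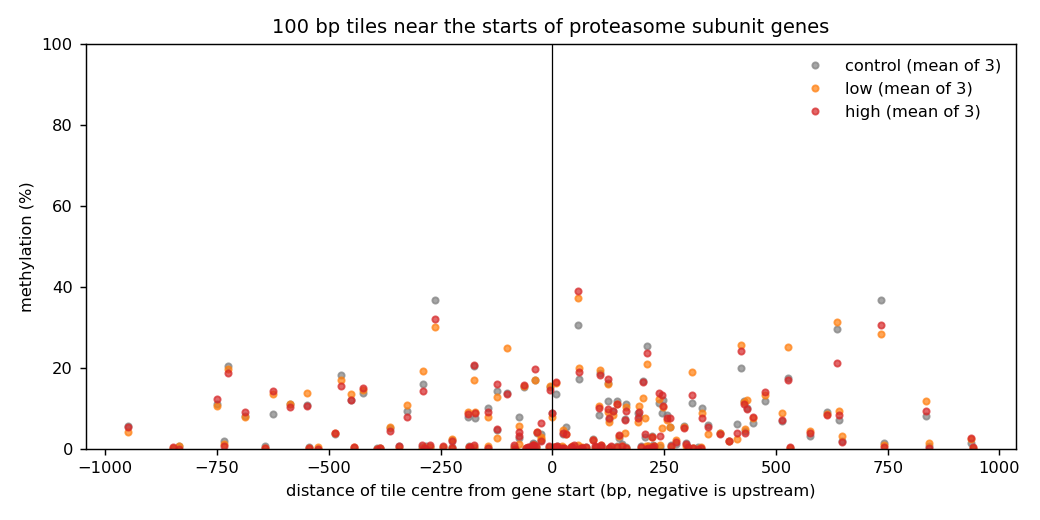
Percent methylation of the 154 tiles within 1000 bp of the starts of 34 proteasome genes against the distance of the tile centre from the start, one point per tile and group, each the mean of 3 libraries. Of the tiles 118 lie under 10% and 0 reach 50% as means over 9 libraries, and no tile differs between the groups past the test.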

How the data were processed

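RNA sequencing of offspring and reduced representation bisulfite sequencing were read from 1 table each. Expression is in CPM per gene as deposited by the authors, per the file headers, with an unknown scaling factor, so no count test was run. Methylation is in percent per tile of 100 bp, as deposited by the authors without coverage. Bowtie 0.12.2, TopHat, SAMtools, edgeR, Trim Galore, Bowtie2, Bismark and methylKit, and the builds mm8 and mm10, are named without a role, per the submitters' processing notes. Among lines without a gene, 6.31 to 6.83% of a column was outside genes and 0.444 to 0.470% in more than 1 gene, besides reads without a unique alignment, and these stayed out of the tests.

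Expression was tested on log2(CPM + 1) by limma 3.58.1 (R 4.3.3) with its variance trend, for 12987 genes with at least 1 CPM in 2 libraries, in 1 fit of 3 groups with 3 residual degrees of freedom. Methylation was tested with limma on percent, over 141251 tiles, with 6 residual degrees of freedom. P-values were adjusted by the Benjamini-Hochberg method over all features. Both steps were tested on simulated data. Tiles fitted GRCm38.p6: 52892 lay within 1000 bp of gene starts (mean 9.81%), against 3788 to 5824 (34.6 to 37.0%) near shifted starts. Genes are named where they pass the test or, where none do, as the 3 of smallest p in each direction of a comparison, with class extremes in CPM, catalytic, immune, activator and inhibitor genes and the 3 widest ranges. Psmd14 and genes of the other lists were picked knowing their values. The genes and lists were chosen with earlier results of these data known. The planned edgeR test was not run, and the other alternatives are given at the end.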

Additional observations from a re-analysis of the deposited data

How the results depend on the processing

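No proteasome gene and no tile at a proteasome gene start was called under any alternative run: another pseudocount, other filters, rescaled columns, quantile normalization, 2 groups in the fit, no trend, a replicate block, leaving out each library and, for tiles, other windows and a logit scale, which gave counts only. Over all genes, high against control had 2 calls with only 2 groups in the fit, 0 without a trend and 0 with column number as a replicate block, against 1, and high against low had 9 with only 2 groups, against 0. Column numbers did not pair the libraries (correlations of deviations from −0.073 to 0.090 in expression and −0.033 to 0.029 in methylation), and the block changed no call of a proteasome gene. The cause of these shifts was not tested.

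Leaving out 1 library at a time, where a group of 1 is assumed to vary like the others, gave 0 to 65 calls over all genes in low against control, 0 to 2 in high against control and 0 to 291 in high against low. The median of the 44 genes in high against control ran from 0.021 to 0.096, and the positive count in high against low from 11 to 33. The count with no overlap upward, an alternative chosen after seeing the data, ran from 27 to 38 in low against control, 13 to 36 in high against control and 3 to 20 in high against low, while the share of all genes ran from 18 to 35.1%, 23.5 to 42% and 21.8 to 42.7%. The low ends are the values with all libraries, which leaving out a library of the group not compared does not change. With a library of a compared group left out, the counts began at 30, 14 and 4. The shares of all genes then began at 33.2, 38.5 and 37.1%. Class medians that turned sign in high against control were those of the beta ring (−0.034 to 0.105), other base subunits (−0.0097 to 0.088), activators (−0.029 to 0.083) and the inhibitor (−0.031 to 0.116). That of the base chaperones (−0.00089 to 0.067) turned in low against control. In high against low, those of the alpha ring (−0.036 to 0.019), beta ring (−0.083 to 0.055), base ATPases (−0.048 to 0.035) and other base subunits (−0.043 to 0.055) turned. So did those of the lid (−0.024 to 0.014), inhibitor (−0.110 to 0.037) and core chaperones (−0.042 to 0.0053) in that comparison. Signs turned for Psmd11 (−0.042 to 0.012) and Psmd10 (−0.021 to 0.0096) in low against control, and for Psme4 (−0.153 to 0.045), Psmb10 (−0.169 to 0.0996) and Psmd11 (−0.040 to 0.014) in high against control. Library totals are known only as relative depth and tiles carry no coverage, so no counting interval can be given for either.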

Other observations

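Methylation tiles also lay at the starts of 3 proteasome genes that the expression table does not list, and these values were looked up after the results above were known. Psmb11, the catalytic subunit of the thymus, had 1 tile within 1000 bp of its start, centred 840.5 bp into the gene, at 71.6, 76.7 and 53.0% in control, 71.0, 74.1 and 76.4% in low and 71.4, 77.3 and 84.4% in high libraries. It was above the highest of the 154 tiles at listed proteasome genes, which averaged 35.6%, in all 9 libraries. Psmb8, an interferon-inducible catalytic subunit, had 2 tiles upstream of its start, between 3.37 and 12.8% in the 9 libraries. Psmb9, another interferon-inducible subunit, had 4 tiles upstream, between 1.67 and 21.6%.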
